A study of Drosophila melanogaster with 7 samples.

Results

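One RNA library from the midgut of Drosophila melanogaster flies kept at 40% oxygen is described here against the 2 libraries of the same batch, 1 from flies kept at 10% oxygen and 1 from flies kept at 20%. It was chosen by its title, and it is the only library at 40% among the 7 of the series. In every group the flies were virgin females, the strain label is sg-Gal4,UAS-GFP, the cabinets were sealed at their oxygen level, and gut RNA was taken at day 53. The labels do not say which cells sg-Gal4 drives, from when the days were counted, or how many guts went into a library. The other 4 libraries, 2 at 10% and 2 at 20% oxygen, carry batch 1 in the labels and serve below as a range for each gene. At 40% there is no replicate, so every level in that library is a single value, and an effect of oxygen cannot be told apart from a property of this library. Whether replicates at 10% or 20% are separate groups of flies is not in the labels, so p-values reflect sample-to-sample spread that may be purely technical.

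The fly midgut secretes digestive enzymes, takes up sugars, lipids and metals, and forms a barrier against microbes. Its enterocytes absorb and digest, copper cells acidify the lumen, enteroendocrine cells release peptide hormones, and stem cells replace what is lost. Oxygen above the level of air is known to raise the load of reactive oxygen species, which catalase, peroxiredoxins and methionine sulphoxide reductases help to clear or repair. When oxygen is scarce, the factor Sima is stabilised, since the prolyl hydroxylase Hph needs oxygen to mark it for destruction.

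The 40% library held 19.79 M counts (M for mega), against 19.22 M in the 10% library and 19.41 M in the 20% library of batch 2. Mitochondrially encoded transcripts were 71.0% of its counts, against 61.0% and 64.0% in its batch mates at 10% and 20% and between 4.1% and 4.7% in batch 1. The 38 mitochondrial features were removed before rescaling, which left 5.73 M counts at 40%, against 7.49 M at 10% and 7.0 M at 20%. Levels are given as CPM, counts per M counts outside the mitochondrial genome, scaled with TMM factors that correct for a few abundant genes. On this scale 3 counts, taken as the detection floor, stand for 0.528 CPM at 40%, against 0.422 CPM at 10% and 0.418 CPM at 20%. The mean fragment length was 230 bases at 40%, against 245 bases at 10%, 255 bases at 20% and 273 to 281 bases in batch 1.

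Among the 6323 features with at least 10 CPM in 1 or more of the 3 libraries of batch 2, 43 stood at least 4-fold above both batch mates in the 40% library (0.68%) and 49 stood at least 4-fold below both (0.775%), 1.46% in all. The genes above included the stress peptides TotA, TotC and TotM, the hormone Akh and the enzyme ple. Digestive Jonah proteases, lysosomal mannosidases and the sterol-binding protein Npc2d were among those below. These counts are descriptions of 3 libraries, with 0.5 CPM added before each ratio. The samples are bulk tissue, in which fewer cells of a type and less RNA per cell cannot be told apart. Pairwise, 175 features (2.77%) differed at least 4-fold between the 40% and the 20% library and 170 (2.69%) between the 40% and the 10% library, while 105 (1.66%) did so between the 10% and the 20% library. The SD of the log2 ratio over these features was 0.79 for 40% against 20%, 0.85 for 40% against 10% and 0.67 for 10% against 20%.

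**Figure D1:**
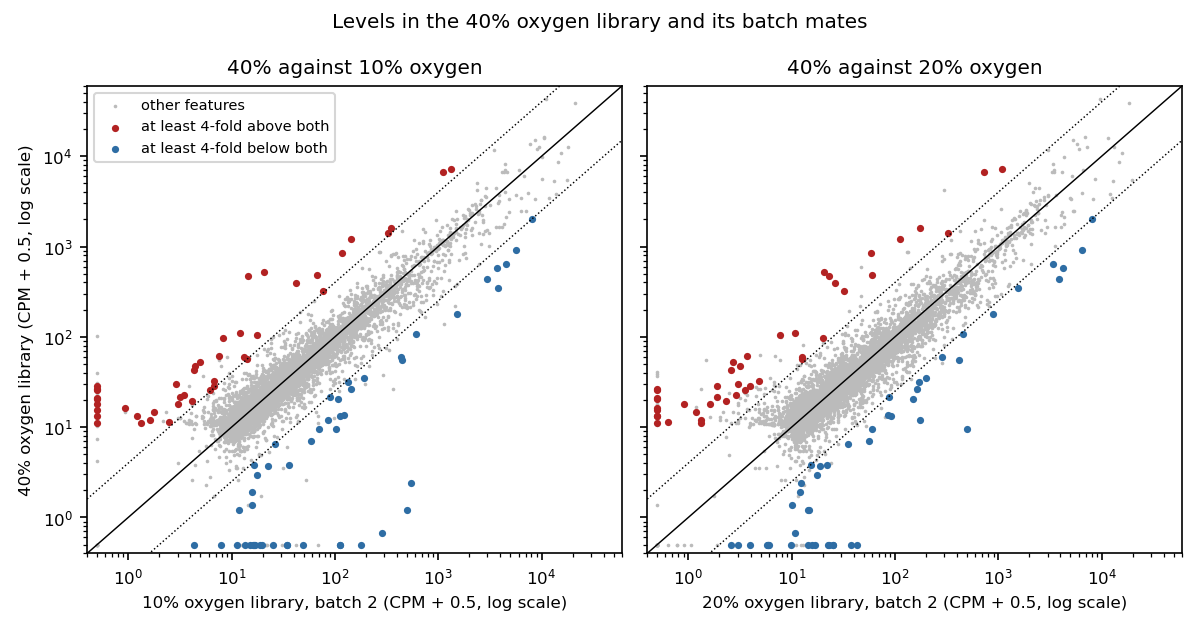
Levels of 6323 features (CPM + 0.5, log scales) in the 40% oxygen library, on the vertical axis, against its batch mates at 10% oxygen (left) and 20% oxygen (right), with each point a feature. The solid line marks equal levels and the dotted lines a 4-fold difference, and coloured points are the 43 features at least 4-fold above both mates and the 49 at least 4-fold below both.

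For a test, edgeR's quasi-likelihood fit of all 7 libraries with batch as a term set the 40% library against the mean of 10% and 20%. It called 402 of 10364 features (3.88%) at an adjusted p below 0.05, 177 higher (1.71%) and 225 lower (2.17%). Every feature called higher stood above both batch mates and every one called lower stood below both, against 36.9% and 37.4% of all tested features. In 146 of the 177 the 40% library was also above all 6 other libraries, and in 224 of the 225 it was below all 6. The calls use the same values, so this placing is no separate check on them. The spread behind these calls comes from the 10% and 20% libraries, mainly those of batch 1, and is assumed to hold for the single 40% library. With replicate number as a block in place of batch the fit called 29 features higher and 68 lower. With 1 library left out at a time it called 9 higher and 5 lower (without 10% replicate 1), 58 and 83 (without 10% replicate 2), 75 and 90 (without 10% replicate 3, the batch mate), 99 and 131 (without 20% replicate 1), 1 and 1 (without 20% replicate 2), and 65 and 162 (without 20% replicate 3, the other batch mate). Of the 89 called genes that the naming rule picked, 6, 40, 35, 56, 1 and 44 kept their call in these fits, in the same order. All 402 kept their direction in each of them, but they were picked by the main fit and each fit holds the same 40% library. The shared direction is therefore no separate check. On log2(TPM + 1), where TPM is transcripts per M transcripts, a unit corrected for length, limma called 105 higher and 709 lower, with the median of all features at -0.21 against -0.01 in edgeR. Each call below therefore rests on this set of libraries. Rose, fell and called refer to edgeR unless another tool is named, and differences are log2 values, 40% minus the mean of 10% and 20%, with their standard error (SE).

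Among called genes with no same-strand overlap, the one farthest above the nearer batch mate was alpha-Man-Ic, a class I alpha-mannosidase, with 10.7 CPM at 40%, against 0.844 CPM at 10% and 0.836 CPM at 20%. Only 61, 6 and 6 counts stand behind these levels, and the fitted difference was 3.64 (SE 0.67, edgeR adjusted p = 0.0478). The short neuropeptide F gene sNPF, a feeding peptide of neurons and gut endocrine cells, had 61.5 CPM at 40%, against 7.03 CPM at 10% and 3.20 CPM at 20%, and 5.23 to 8.34 CPM in batch 1. Its level at 40% stood apart from all 6 other libraries, and it rose by 3.66 (SE 0.31, edgeR adjusted p = 0.0183). Tyrosine hydroxylase (ple, chromosome arm 3L, 6713356 to 6719525, assembly BDGP6.54), the first enzyme of dopamine synthesis, which also supplies dopamine for cuticle tanning and wound repair, had 104.6 CPM at 40%, against 17.0 CPM at 10% and 7.24 CPM at 20%. Batch 1 held 20.7 to 54.7 CPM of it, so the mates lay below batch 1 and the 40% library above it, and the fitted difference was 3.24 (SE 0.13, edgeR adjusted p = 0.00244).

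MtnA, a metallothionein that binds copper and other metals, was the called gene with the most counts in the 40% library. It had 43505 CPM at 40%, against 10966 CPM at 10% and 9582 CPM at 20%, and 963 to 1286 CPM in batch 1. As a share of counts outside the mitochondrial genome that is 4.31% at 40% (95% interval 4.291 to 4.324), against 1.04% at 10% (1.034 to 1.049) and 0.983% at 20% (0.9757 to 0.9903), by exact Clopper-Pearson intervals that cover counting error only. All 3 libraries of batch 2 were above all 4 of batch 1, and within batch 2 the 40% library was the highest, with a fitted difference of 2.08 (SE 0.20, edgeR adjusted p = 0.0206). The gene lies on 3R from 9783407 to 9784370. The 17 tested genes for metallothioneins and metal transport had a median difference of -0.03, so MtnA does not stand for the list. Of these edgeR called no other gene, while DESeq2 and limma called others too. MtnC, another metallothionein, had 354 CPM at 40%, against 370 CPM at 10% and 388 CPM at 20%.

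Other called genes among the 15 farthest above were takeout (to), Ag5r, Def, Dpm3 and Hr96. Takeout, a carrier-like protein linked to the clock and to feeding, had 23.4 CPM at 40%, against 6.05 CPM at 10% and 3.07 CPM at 20%. Its batch 1 levels, 12.3 to 31.5 CPM, enclosed the 40% value, so there the mates were the ones outside. Ag5r, a secreted protein of the antigen 5 family, had 1490 CPM at 40%, against 444 CPM at 10% and 425 CPM at 20%. Hr96, a nuclear receptor of lipid and xenobiotic metabolism, had 66.1 CPM at 40%, against 23.2 CPM at 10% and 18.1 CPM at 20%, and rose by 1.68. Cubn, Cubn2 and Amnionless, named after their values were seen, encode parts of a receptor for protein uptake known from fly nephrocytes. Cubn had 77.2 CPM at 40%, against 30.8 CPM at 10% and 21.7 CPM at 20% (difference 1.56, edgeR adjusted p = 0.0231). Amnionless had 31.0 CPM at 40%, against 10.5 CPM at 10% and 6.27 CPM at 20%, and rose by 1.92. Batch 1 held only 0.303 to 0.479 CPM of it. It overlaps CG3625 on the same strand, so how reads were split between them is uncertain. Cubn2 had 32.2 CPM at 40%, against 6.33 CPM at 10% and 4.32 CPM at 20%, and missed the threshold (edgeR adjusted p = 0.052).

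Among called genes with no same-strand overlap, Npc2d stood farthest below the nearer mate. This secreted sterol-binding protein of the Niemann-Pick type C2 family (3R, 10055356 to 10056083) had 55.0 CPM at 40%, against 446 CPM at 10% and 418 CPM at 20%, and 483 to 533 CPM in batch 1. The 6 other libraries lay close together and the 40% library far under them, with a difference of -2.97 (SE 0.13, edgeR adjusted p = 0.00244). Npc2c of the same family had no count at 40%, which allows up to 0.528 CPM, against 13.1 CPM at 10% and 15.2 CPM at 20% (edgeR adjusted p = 0.0705). The cytochrome P450 gene shd, whose enzyme turns ecdysone into its active form, had 1.41 CPM at 40%, against 15.2 CPM at 10% and 11.6 CPM at 20%, and fell by 3.24 (SE 0.40, edgeR adjusted p = 0.0237). MsrA, which reduces oxidised methionine in proteins, had 34.5 CPM at 40%, against 192 CPM at 10% and 200 CPM at 20%, and 226 to 289 CPM in batch 1 (difference -2.50, SE 0.19, edgeR adjusted p = 0.0177).

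**Figure D2:**
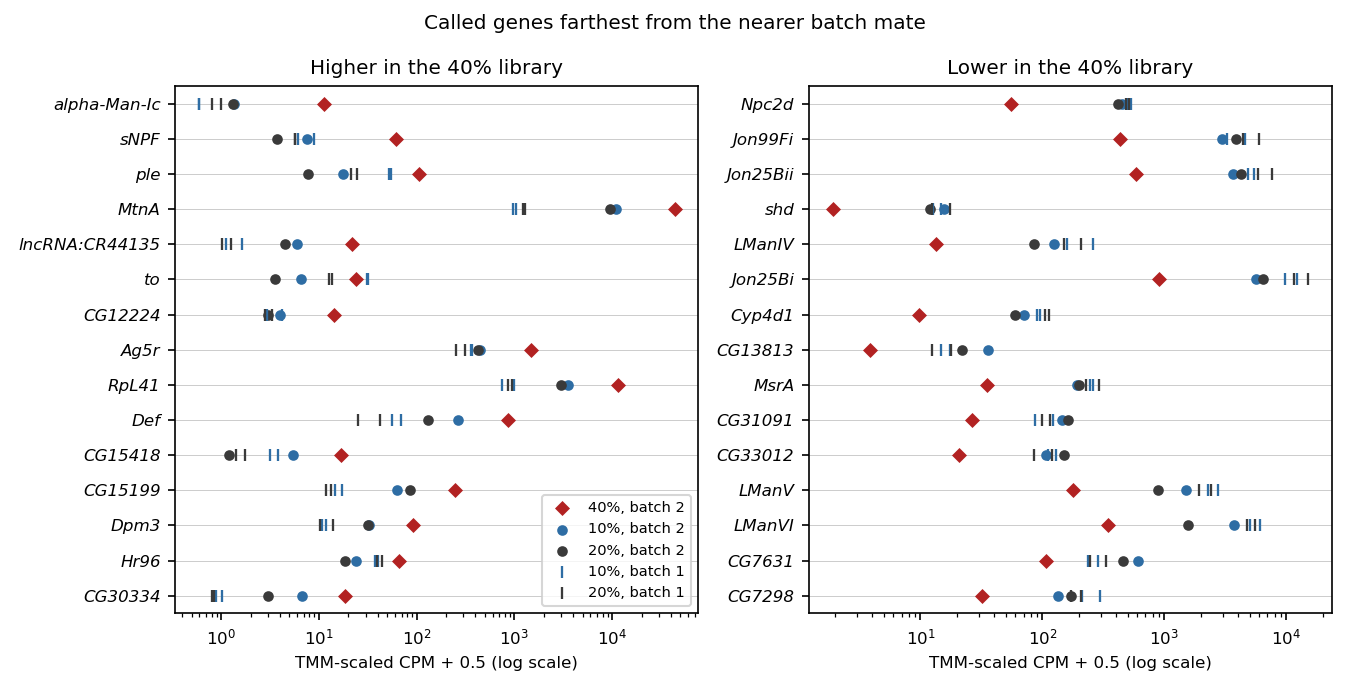
Levels (CPM + 0.5, log scales) of the 15 called genes farthest above (left) and the 15 farthest below (right) the nearer batch mate, with the 40% library as red diamonds, its mates at 10% and 20% as filled circles and the 4 libraries of batch 1 as ticks. In MtnA the 40% library stands at 43505 CPM, above every other library, and in Npc2d at 55.0 CPM, below every other library, while in takeout it lies inside the batch 1 range.

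Digestive enzymes made up a large group below. Of 31 tested serine proteases 11 fell, against 2.17% of all features, none rose, and 28 stood below both mates, against 37.4% of all features. Their median difference was -1.21, against -0.01 over all tested features. The 11 are 10 Jonah proteases, serine proteases of the midgut, and their relative yip7. Together the protease genes took 6.38% of counts outside the mitochondrial genome at 40%, against 13.8% at 10% and 14.2% at 20%, and 20% to 24.1% in batch 1.

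The 3 Jonah genes at 25B on arm 2L fell together. Jon25Bi had 908 CPM at 40%, against 5651 CPM at 10% and 6410 CPM at 20% (difference -2.73, edgeR adjusted p = 0.0206). Jon25Bii had 580 CPM at 40%, against 3668 CPM at 10% and 4253 CPM at 20% (difference -2.77), and Jon25Biii had 2001 CPM at 40%, against 8178 CPM at 10% and 8160 CPM at 20% (difference -2.04). In each of the 3 the 40% library was below all 6 others. Jon99Fi had 436 CPM at 40%, against 2952 CPM at 10% and 3881 CPM at 20% (difference -2.96, edgeR adjusted p = 0.0229). These families hold near-identical copies, and how the authors' counting split reads between them was not tested. Among proteases that were not called, alphaTry had 10857 CPM at 40%, against 15323 CPM at 10% and 15677 CPM at 20%, and Jon99Ci had 12732 CPM at 40%, against 18041 CPM at 10% and 13056 CPM at 20%.

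Of 20 carbohydrate-digesting genes edgeR called 6 lower and none higher, against 2.17% and 1.71% of all features, with 4 higher at an unadjusted p below 0.05. DESeq2 called 4 of the list higher and 8 lower, and limma 1 higher and 8 lower. The 6 that fell in edgeR are LManI to LManVI, lysosomal-type alpha-mannosidases that are strongly expressed in the gut. LManIII to LManVI lie side by side on 2L from 8765273 to 8781252. LManVI had 344 CPM at 40%, against 3757 CPM at 10% and 1559 CPM at 20%, and 4738 to 6068 CPM in batch 1 (difference -2.87, edgeR adjusted p = 0.0441). LManIV had 13.0 CPM at 40%, against 123 CPM at 10% and 84.8 CPM at 20% (difference -2.97). In the whole carbohydrate list 9 genes stood below both mates and 9 above both, against 37.4% and 36.9% of all features, with a median difference of -0.10. Its members Mal-B1 and tobi stood at least 4-fold above both without a call and were named after their values were seen. The maltase gene Mal-B1 had 111 CPM at 40%, against 11.5 CPM at 10% and 10.3 CPM at 20%, and tobi, an alpha-glucosidase known as a target of the fly insulin and Akh signals, had 1419 CPM at 40%, against 325 CPM at 10% and 325 CPM at 20%. Batch 1 held 411 to 1437 CPM of tobi, a range that takes in the 40% value.

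Lysozymes, which the fly gut uses to digest bacteria, had a median difference of -1.05 over 6 tested genes, 2 of which fell, against 2.17% of all features. LysD had 2478 CPM at 40%, against 7061 CPM at 10% and 5375 CPM at 20%, and LysB had 1628 CPM at 40%, against 4109 CPM at 10% and 3510 CPM at 20%. The lysozyme genes made up 0.664% of counts outside the mitochondrial genome at 40%, against 1.51% at 10% and 1.3% at 20%.

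**Figure D3:**
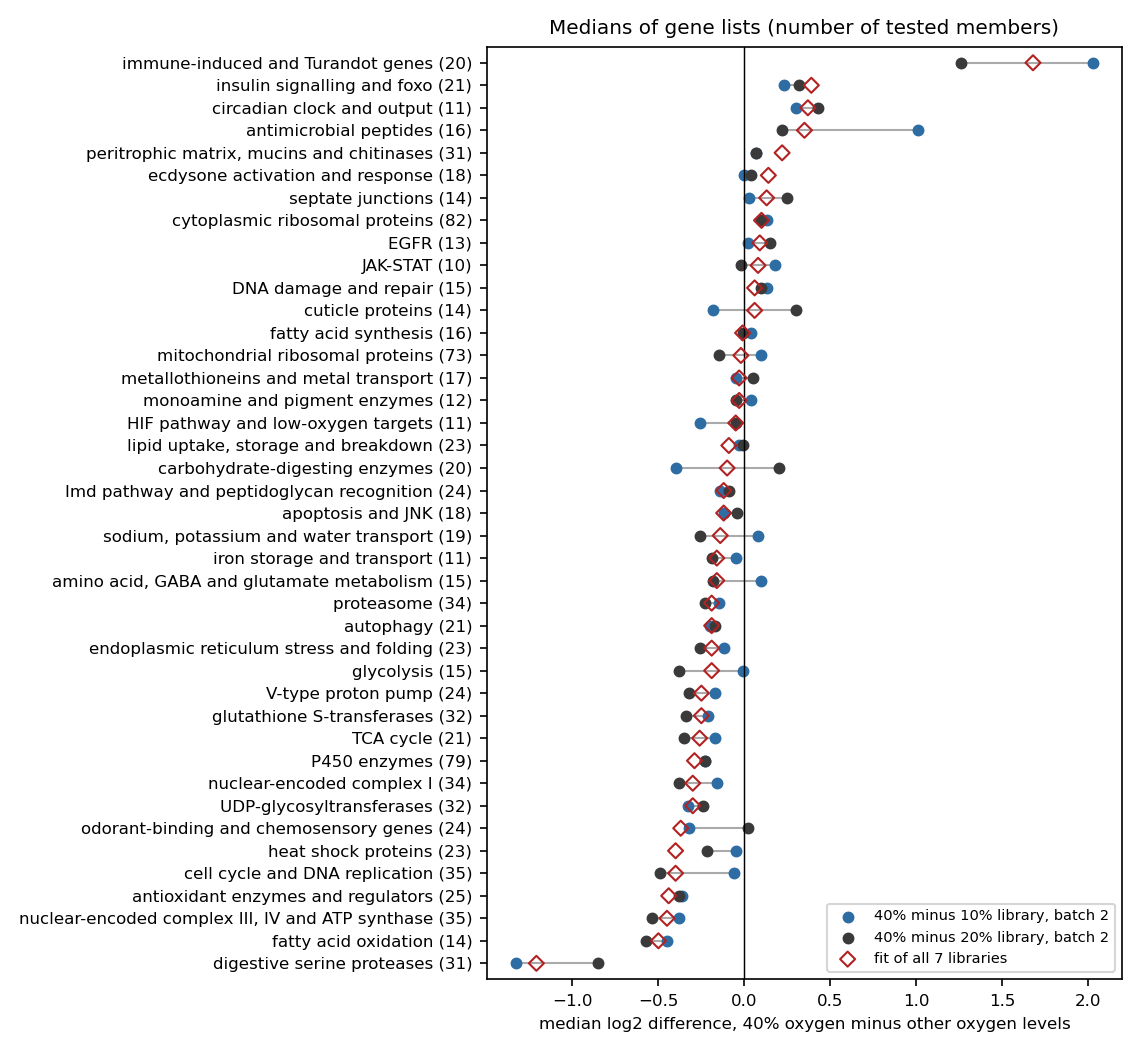
Median log2 differences (horizontal axis) of gene lists with at least 10 tested members, marker lists of cell types and tissues left out, with the number of tested members in brackets: filled circles give 40% minus the 10% library and 40% minus the 20% library of batch 2, open diamonds the fit of all 7 libraries, and 1 circle can hide another. Of the lists drawn, digestive serine proteases lie lowest at -1.21 and immune-induced and Turandot genes highest at 1.68 in the fit, while most lists lie near 0.

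Genes of lipid storage and of fatty acid oxidation fell at 40% where they were called. The 23 genes of lipid uptake, storage and breakdown had a median of -0.09. DESeq2 called more of them lower than higher, and limma called lower ones only. Those that edgeR called all fell. Besides Npc2d these were Dgat2, which makes triglyceride (7.57 CPM at 40%, against 25.5 CPM at 10% and 26.5 CPM at 20%), the lipid droplet coat protein Lsd-2 (85.6 CPM at 40%, against 224 CPM at 10% and 193 CPM at 20%), the fatty acid binding protein fabp (708 CPM at 40%, against 1592 CPM at 10% and 1731 CPM at 20%) and the lipase brummer (bmm, 59.9 CPM at 40%, against 123 CPM at 10% and 116 CPM at 20%). Both an enzyme that builds triglyceride and one that breaks it down were thus lower. All 14 tested genes of fatty acid oxidation had a negative difference, with a median of -0.50. Of these, 13 stood below both mates, against 37.4% of all features, and 4 fell, against 2.17%.

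The peroxisomal acyl-CoA oxidases Acox57D-d and Acox57D-p were the oxidation genes that fell most, with differences of -1.41 and -1.59. Acox57D-p had 30.7 CPM at 40%, against 101 CPM at 10% and 83.6 CPM at 20%, and 229 to 263 CPM in batch 1. The mitochondrial enzyme scu and the electron transfer protein Etf-QO fell, with differences of -0.77 and -0.64. Further called genes with peroxisomal or lipid roles, named after their values were seen, were CROT, a carnitine octanoyltransferase (18.5 CPM at 40%, against 56.1 CPM at 10% and 45.7 CPM at 20%), Daao1, a D-amino acid oxidase that releases hydrogen peroxide (40.9 CPM at 40%, against 116 CPM at 10% and 128 CPM at 20%), Seipin, which shapes lipid droplets (52.0 CPM at 40%, against 136 CPM at 10% and 131 CPM at 20%), and the ceramidase CDase (46.5 CPM at 40%, against 213 CPM at 10% and 150 CPM at 20%). The 16 fatty acid synthesis genes had a median of -0.01. Among them the elongase Baldspot rose by 1.05 and the acyltransferase Gpat4 fell by 0.85. DESeq2 and limma called members of this list in both directions too.

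Of 25 tested antioxidant enzymes and regulators 3 fell, against 2.17% of all features, 17 stood below both mates, against 37.4% of all features, and the median difference was -0.44. None was called higher by edgeR, DESeq2 or limma, nor stood higher at an unadjusted p below 0.05 in any of them. Catalase (Cat), which breaks down hydrogen peroxide, had 137 CPM at 40%, against 288 CPM at 10% and 246 CPM at 20%, and fell by 0.96 (edgeR adjusted p = 0.0329). The peroxiredoxin Prx6c had 21.1 CPM at 40%, against 89.3 CPM at 10% and 87.5 CPM at 20%, and fell by 2.07. Keap1, the repressor of the oxidative stress factor cnc, had 7.93 CPM at 40%, against 13.4 CPM at 10% and 15.2 CPM at 20%, and fell by 0.84. Both ferritin subunits, which store iron and are encoded side by side on 3R, fell. Fer1HCH had 1425 CPM at 40%, against 3114 CPM at 10% and 2864 CPM at 20%, and Fer2LCH had 1054 CPM at 40%, against 2597 CPM at 10% and 2093 CPM at 20%.

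In the detoxification families most calls were downward. Of 79 tested cytochrome P450 genes 11 fell and 1 rose, against 2.17% and 1.71% of all features, 42 stood below both mates, against 37.4% of all features, and the median was -0.29. Cyp4d1 had 9.16 CPM at 40%, against 69.6 CPM at 10% and 58.9 CPM at 20%, and 90.3 to 114 CPM in batch 1 (difference -2.81, edgeR adjusted p = 0.0177). Its relatives Cyp4d2, Cyp4d8 and Cyp4d14 fell, with differences of -1.51, -2.32 and -1.63, and so did Cyp6t1, with -2.07. The 1 that rose, Cyp4aa1, had 8.63 CPM at 40%, against 5.62 CPM at 10% and 1.11 CPM at 20%. Only 49, 40 and 8 counts stand behind these levels. Batch 1 held 4.12 to 14.1 CPM, a range that takes in the 40% value. The gene overlaps COX6AL on the same strand, so how reads were split between them is uncertain. Of 32 UDP-glycosyltransferases, which attach sugars to foreign compounds, 4 fell, against 2.17% of all features, and none rose in edgeR, DESeq2 or limma, with a median of -0.30. They were Ugt37A1, Ugt37A3, Ugt37B1 and Ugt49B1, and Ugt37A1 had 1.23 CPM at 40%, against 5.48 CPM at 10% and 5.99 CPM at 20%. Glutathione S-transferases went both ways over 32 tested genes: GstE8 and GstE9, neighbours on 2R, rose by 0.93 and 0.75, and GstT3 fell by 1.14. Over all features 1.71% rose and 2.17% fell. Marker genes of Malpighian tubules and hindgut, tissues that also express many of these enzymes, summed to 279 CPM at 40%, against 312 CPM at 10% and 522 CPM at 20%, with none of the 12 at 0. Their part in the result was not tested.

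Ribosomal proteins took up a larger share of the 40% library. The 86 cytoplasmic genes held 28.1% of counts outside the mitochondrial genome at 40%, against 19.1% at 10%, 18.6% at 20% and 6% to 7.14% in batch 1. Of 82 tested, 5 rose, against 1.71% of all features, and none fell. At an unadjusted p below 0.05 edgeR had 26 higher and none lower, and limma on TPM 7 higher and 14 lower. DESeq2 called 26 higher and limma 1 higher, with none called lower by either. In the list 47 stood above both mates, against 36.9% of all features, but the median difference was only 0.10 and turned to -0.28 on TPM. RpL41, the smallest ribosomal protein, had 11588 CPM at 40%, against 3500 CPM at 10% and 3001 CPM at 20%, and rose by 1.84 (edgeR adjusted p = 0.0229). RpL38 had 38781 CPM at 40%, against 20942 CPM at 10% and 18227 CPM at 20%, and 251 to 356 CPM in batch 1. It rose by 0.99 (edgeR adjusted p = 0.047), a call lost in 13 of 19 alternatives. Among these the difference stayed at 0.99 without TMM scaling (edgeR adjusted p = 0.0663) and with mitochondrial genes kept (0.0502), and was 0.89 with length offsets (0.0638) and 0.55 with limma on TPM (limma adjusted p = 0.218), and over the 19 the adjusted p ran from 1.02e-07 (DESeq2) to 0.608 (no batch term). RpL39 rose by 1.22 and RpS18 by 0.67, and RpL21 had 8264 CPM at 40%, against 4391 CPM at 10% and 3381 CPM at 20%. Of 73 mitochondrial ribosomal proteins edgeR called 4 higher, against 1.71% of all features, and none lower, with a median of -0.02 and 7 lower at an unadjusted p below 0.05. DESeq2 called 7 higher and 1 lower, and limma 1 higher and 7 lower. Of the 4 called by edgeR, mRpL34 had 86.0 CPM at 40%, against 23.5 CPM at 10% and 31.1 CPM at 20%.

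Several of the genes that rose encode short transcripts, and length went with the difference. Length groups were formed from the 6323 features with at least 10 CPM in 1 or more libraries of batch 2. The 54 with a longest annotated transcript of up to 400 bases had a median of 0.92 against the 10% library. Against the 20% library it was 0.89, whereas 10% minus 20% was 0.09. From 1501 to 2500 bases the medians were -0.10 and -0.15. Among the 830 features of 5001 bases or more they were 0.06 and 0.18, and 0.11 for 10% minus 20%. In these 830, and in the 54 of up to 400 bases, more were called higher than lower. Over all tested features, those under 10 CPM included, more were called lower than higher. Subtracting the trend with length from the fitted differences, with each SE kept and no new fit, left 133 features called higher and 197 lower. After that step RpL39 no longer passed (0.49, edgeR adjusted p = 0.146), and neither did Def (1.78, edgeR adjusted p = 0.0513). Over 19 alternatives their adjusted p ran from 1.16e-11 to 0.494 for RpL39 and from 1.73e-08 to 0.494 for Def. The part of fragment length in these results was not tested otherwise.

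**Figure D4:**
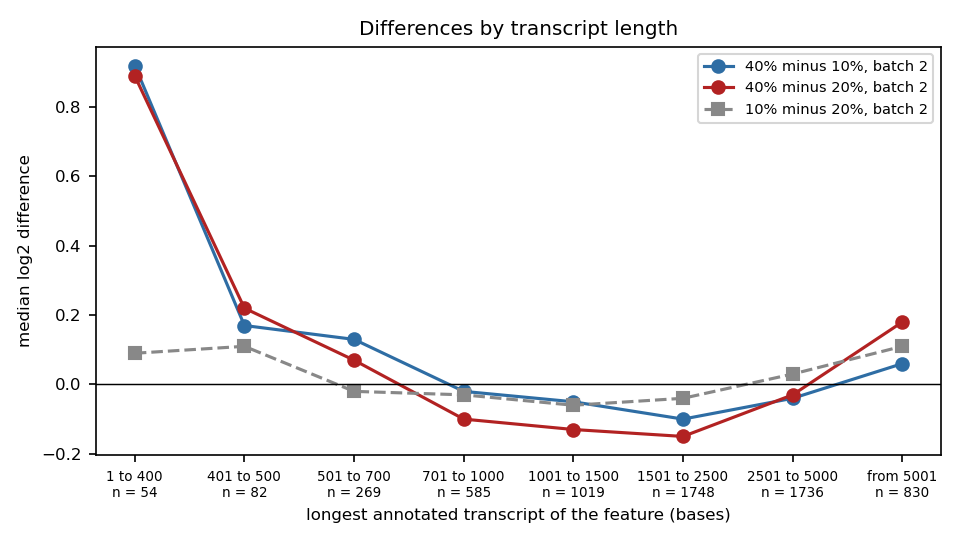
Median log2 differences (vertical axis) by the length of the longest annotated transcript in bases (horizontal axis, with the number of features), for 40% minus 10%, 40% minus 20% and 10% minus 20% within batch 2. Only features with at least 10 CPM in 1 or more libraries of batch 2 are drawn. Features of up to 400 bases have medians of 0.92 and 0.89 for the 40% library and 0.09 between its mates.

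Nuclear genes of the respiratory chain had mostly negative differences, beside the larger mitochondrial share. Of 34 tested complex I subunits 1 rose and 2 fell, against 1.71% and 2.17% of all features, with a median of -0.30. ND-AGGG, the 1 that rose, had 1559 CPM at 40%, against 712 CPM at 10% and 683 CPM at 20%. Of the 35 genes of complexes III and IV and ATP synthase, those that edgeR called were all lower. DESeq2 and limma called members of this list mostly lower, with few higher. In this list 28 stood below both mates, against 37.4% of all features, with a median of -0.45. Those that fell were UQCR-Q, COX6B, COX4 and ATPsynE, with differences of -0.89, -0.72, -0.69 and -0.71. COX4, a core partner of the mitochondrially encoded oxidase subunits, had 276 CPM at 40%, against 422 CPM at 10% and 468 CPM at 20%. The 13 protein-coding genes of the mitochondrial genome made up 22.2% of all counts at 40%, against 18.5% at 10% and 21% at 20%. Of the V-type proton pump, which acidifies the copper cell region, 2 of 24 genes fell, against 2.17% of all features. None rose. DESeq2 called more of the 24 lower than higher, and limma called lower ones only. The 2 that fell were Vha100-4 and Vha100-5, with differences of -1.47 and -0.97.

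Among immune genes the Turandot and immune-induced peptides stood high in the 40% library, without a call. Of 20 tested (of 26 listed) immune-induced and Turandot genes, small secreted peptides that infection and stress switch on mainly in the fat body, 16 stood above both mates, against 36.9% of all features, and 4 at least 4-fold above both. Their median difference was 1.68, and it ranged from 0.37 to 3.01 over the alternative fits. None was called by edgeR, DESeq2 or limma; at an unadjusted p below 0.05, edgeR had 1 higher and none lower, DESeq2 5 higher, and limma none.

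TotA had 46.5 CPM at 40%, against 3.94 CPM at 10% and 2.65 CPM at 20%, and 0.353 to 5.23 CPM in batch 1. TotC had 29.6 CPM at 40%, against 2.39 CPM at 10% and 2.51 CPM at 20%. TotM had 14.3 CPM at 40%, against 1.27 CPM at 10% and 0.697 CPM at 20%. All 3 were named after their values were seen. For each the 40% library was above the 6 others, while the others differed among themselves by several fold. The Bomanins are effectors of the Toll pathway, and BomBc2 had 47.6 CPM at 40%, against 7.45 CPM at 10% and 14.8 CPM at 20%, while BomS3 had 27.8 CPM at 40%, against 3.37 CPM at 10% and 7.11 CPM at 20%. IM33 had 1606 CPM at 40%, against 346 CPM at 10% and 174 CPM at 20%, and 4.70 to 27.3 CPM in batch 1.

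**Figure D5:**
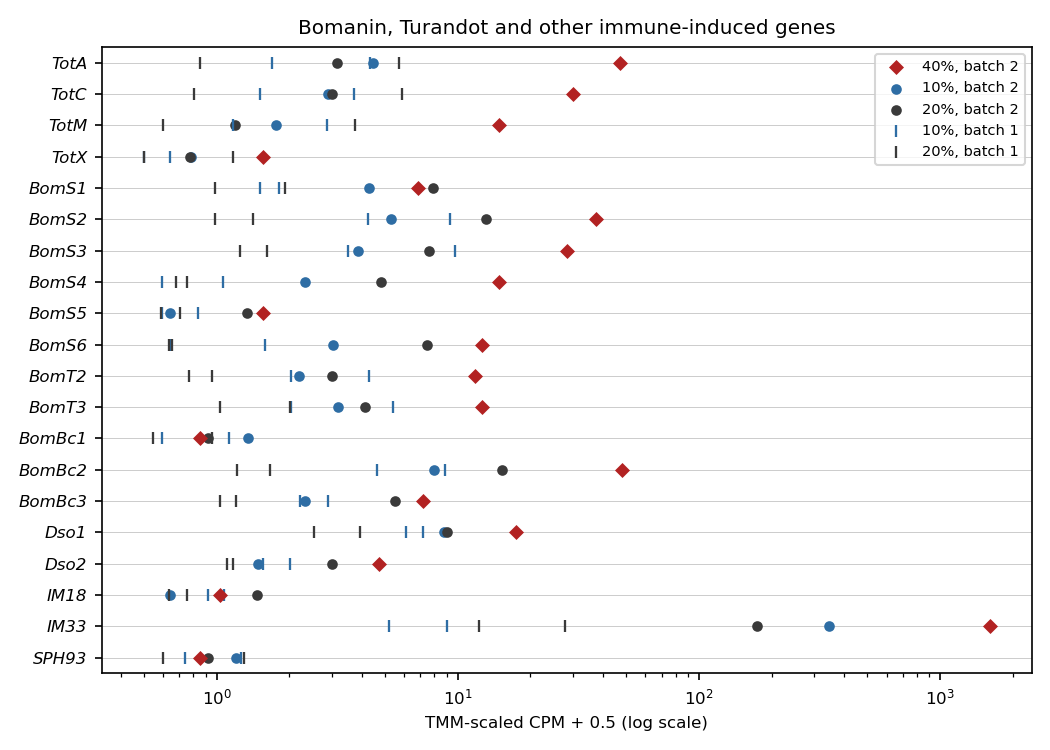
Levels (CPM + 0.5, log scale) of the 20 tested Bomanin, Turandot and other immune-induced genes in the 40% library (red diamonds), its mates at 10% and 20% (filled circles) and the 4 libraries of batch 1 (ticks). TotA stands at 46.5 CPM and IM33 at 1606 CPM in the 40% library, above all other libraries, while BomS1 lies between its mates.

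Of 16 antimicrobial peptides 7 stood above both mates, against 36.9% of all features, and 3 below both, against 37.4%, with a median of 0.35. At an unadjusted p below 0.05 edgeR had 4 higher and none lower. DESeq2 called 3 higher and limma 2, with none called lower by either. The 1 that edgeR called was the defensin Def, with 863 CPM at 40%, against 265 CPM at 10% and 130 CPM at 20%, and 24.7 to 69.5 CPM in batch 1 (difference 2.22, SE 0.31, edgeR adjusted p = 0.0328). DptB, not called by edgeR, had 59.0 CPM at 40%, against 8.58 CPM at 10% and 17.8 CPM at 20%. The diptericin DptA had 80.9 CPM at 40%, against 39.9 CPM at 10% and 12.4 CPM at 20%, and batch 1 held 86.5 to 238 CPM, above all 3. Drosomycin (Drs) had 177 CPM at 40%, against 423 CPM at 10% and 106 CPM at 20%, so the 40% library lay between its mates. Of the 24 tested genes of the Imd pathway, which answers gut bacteria, those that edgeR called fell. DESeq2 called more of this list lower than higher, and limma called lower ones only. Of the 24, 16 had a negative difference, against 5302 of all 10364 tested features. PGRP-SC1a, an amidase that digests peptidoglycan and dampens the pathway, had 231 CPM at 40%, against 975 CPM at 10% and 778 CPM at 20%, and Tab2 fell by 0.58. The 15 fat body markers summed to 3515 CPM at 40%, against 4916 CPM at 10% and 3383 CPM at 20%, with Fbp1, Fbp2 and Lsp1alpha at 0 at 40% and Fbp2 at 0 in both mates. Of these markers smp-30 rose by 0.69. The 16 haemocyte markers summed to 627 CPM at 40%, against 1125 CPM at 10% and 1059 CPM at 20%. Ance, a peptidase, made up most of this and was the 1 member that fell, with 415 CPM at 40%, against 904 CPM at 10% and 797 CPM at 20% (difference -1.03, edgeR adjusted p = 0.0277). The other 15 summed to 212 CPM at 40%, against 221 CPM at 10% and 261 CPM at 20%. The part of these markers in the immune values was not tested.

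Akh, the fly's glucagon-like hormone, is made by the corpora cardiaca beside the front of the gut. It had 519 CPM at 40%, against 20.0 CPM at 10% and 19.9 CPM at 20%, and 1.31 to 17.1 CPM in batch 1, but it was not called (difference 4.65, SE 1.27, edgeR adjusted p = 0.177), and it was named after its values were seen. Of 21 genes of insulin signalling edgeR called 1 higher and none lower, against 1.71% and 2.17% of all features, DESeq2 called 3 higher and 1 lower, and limma none. In this list 11 stood above both mates, against 36.9% of all features, and the median was 0.39. The gene called was foxo, the transcription factor that insulin holds back, with 119 CPM at 40%, against 55.5 CPM at 10% and 63.0 CPM at 20%, and 47.0 to 54.7 CPM in batch 1 (difference 1.01, edgeR adjusted p = 0.0273). The insulin receptor InR had 33.6 CPM at 40%, against 14.6 CPM at 10% and 18.4 CPM at 20% (edgeR adjusted p = 0.0711), and the translation repressor Thor had 335 CPM at 40%, against 401 CPM at 10% and 270 CPM at 20%. ImpL2, a secreted insulin antagonist, had 95.5 CPM at 40%, against 7.73 CPM at 10% and 19.8 CPM at 20%, uncalled, and overlaps CG46460 on the same strand, so how reads were split between them is uncertain.

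Enteroendocrine markers summed to 1303 CPM at 40%, against 1012 CPM at 10% and 937 CPM at 20%. Of 26 tested, sNPF and CCHa2 rose and Orcokinin fell, while 1.71% of all features rose and 2.17% fell. CCHa2, a nutrient-responsive peptide, had 422 CPM at 40%, against 234 CPM at 10% and 183 CPM at 20%, and Orcokinin had 15.2 CPM at 40%, against 32.6 CPM at 10% and 33.4 CPM at 20%. The 17 neuron markers, which bear on sNPF and ple, summed to 103 CPM at 40%, against 120 CPM at 10% and 123 CPM at 20%, with none at 0 at 40% and 4 at 0 in each mate. Their part in those results was not tested.

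The chitin-rich peritrophic matrix lines the midgut. Of 31 tested genes for it, its mucins and chitinases 3 rose and 1 fell, against 1.71% and 2.17% of all features. Muc68D, a mucin, had 217 CPM at 40%, against 135 CPM at 10% and 45.8 CPM at 20%. Cht8 and the chitin deacetylase Cda9 rose by 1.64 and 1.44. In all 3 of these the libraries of batch 1 stood higher still, Muc68D at 432 to 1356 CPM, and without the batch term their differences were negative. The chitinase Cht9 had 33.6 CPM at 40%, against 155 CPM at 10% and 116 CPM at 20%, and fell by 2.00.

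Oxygen-sensing genes gave no call. The HIF alpha subunit sima had 47.2 CPM at 40%, against 49.2 CPM at 10% and 48.8 CPM at 20%. The prolyl hydroxylase Hph, known to be induced by Sima when oxygen is low, had 107 CPM at 40%, against 141 CPM at 10% and 133 CPM at 20%, and 173 to 192 CPM in batch 1 (difference -0.36, edgeR adjusted p = 0.185). Lactate dehydrogenase (Ldh) had 50.6 CPM at 40%, against 70.4 CPM at 10% and 81.9 CPM at 20% (difference -0.61, edgeR adjusted p = 0.391). Both Hph and Ldh were lowest in the 40% library, by less than the test could call. Of the 11 tested genes of the HIF list edgeR called none, had 2 lower at an unadjusted p below 0.05, and DESeq2 and limma called 1 lower each.

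Stress and growth lists held few or no calls. Of 23 heat shock protein genes edgeR called none (4 lower at an unadjusted p below 0.05, 2 called lower by DESeq2 and 2 by limma), with a median of -0.40. Of 23 genes of endoplasmic reticulum stress and folding it called none (8 lower unadjusted, 5 called lower by DESeq2 and 4 by limma), with a median of -0.19. The 35 genes of the cell cycle and DNA replication had a median of -0.40, and edgeR, DESeq2 and limma called none, though only 7 of them reached 10 CPM (edgeR unadjusted: 2 higher, 3 lower). The 18 genes of apoptosis and JNK signalling had a median of -0.12. Among them the effector caspase Dcp-1 fell by 1.06, with 9.51 CPM at 40%, against 18.0 CPM at 10% and 21.9 CPM at 20%. A single gene is no result about the list. Of 34 proteasome genes edgeR called none (3 higher and 8 lower unadjusted, 2 called lower by DESeq2 and 3 by limma). The 15 glycolytic and 21 TCA cycle genes had medians of -0.19 and -0.26 and no call in edgeR, with 3 and 7 lower unadjusted, 2 and 6 called lower by DESeq2, and 1 and 4 by limma.

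As to tissue makeup, none of the 11 enterocyte and copper cell markers of the labelled midgut was at 0 in batch 2, and they summed to 699 CPM at 40%, against 987 CPM at 10%, 956 CPM at 20% and 2158 to 2527 CPM in batch 1. Vha100-4, of copper cells, and the myosin Myo61F, of the brush border, were among the genes that fell, with differences of -1.47 and -0.74. The 12 progenitor markers summed to 74.7 CPM at 40%, against 63.7 CPM at 10% and 80.8 CPM at 20%. Muscle markers summed to 20024 CPM at 40%, against 23677 CPM at 10%, 21929 CPM at 20% and only 1722 to 2235 CPM in batch 1. Tracheal markers summed to 327 CPM at 40%, against 332 CPM at 10% and 273 CPM at 20%, and those of crop and proventriculus to 206 CPM at 40%, against 183 CPM at 10% and 195 CPM at 20%. Ovary and germline markers summed to 24.7 CPM at 40%, against 34.7 CPM at 10% and 49.0 CPM at 20%, with 14 of 29 at 0 at 40%, 3 at 10% and 5 at 20%. None of these lists of muscle, trachea, crop, progenitor, tubule or ovary genes held an edgeR call, with at most 1 gene each at an unadjusted p below 0.05; DESeq2 called 1 muscle gene lower and limma 3. What part the tissue markers play in other results was not tested.

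Some features that stood far below both mates also varied between the other libraries, and were named after their values were seen. Send1, a protease of the female sperm storage organ, had no count at 40%, which allows up to 0.528 CPM, against 48.4 CPM at 10% and 5.29 CPM at 20%, and 0 to 33.9 CPM in batch 1. CG17239 had no count at 40% either, against 180 CPM at 10% and 9.33 CPM at 20%, and CG43074 had 0.705 CPM at 40%, against 499 CPM at 10% and 14.1 CPM at 20%. In all 3 the mate at 10% was far above the mate at 20%. Cyp4g1, which makes surface hydrocarbons in oenocytes, had 11.6 CPM at 40%, against 85.2 CPM at 10% and 173 CPM at 20%, within a batch 1 range of 0.240 to 342 CPM.

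A few differences of the all-or-none kind were between genes that overlap on the same strand, where the counts of 1 can pass to the other. HemK2 had 25.2 CPM at 40% and no count in either mate, whereas its partner Snapin had none at 40%, against 24.5 CPM at 10% and 24.4 CPM at 20%. Summed over the pair, levels were 25.2 CPM at 40%, against 24.5 CPM at 10% and 24.4 CPM at 20%. The pair PolG2 and GatC summed to 20.3 CPM at 40%, against 15.5 CPM at 10% and 16.3 CPM at 20%, and the pair CG33932 and Rpp20 to 20.6 CPM at 40%, against 18.4 CPM at 10% and 22.7 CPM at 20%. In other pairs the sums differed more: CG42306 and Gint3 summed to 43.5 CPM at 40%, against 75.5 CPM at 10% and 66.5 CPM at 20%, and CG42381 and CG42379 to 25.9 CPM at 40%, against 34.3 CPM at 10% and 36.6 CPM at 20%. Of the features at least 4-fold outside both mates, 14 of the 43 above and 13 of the 49 below overlap another on the same strand.

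Transposon insertions were called mostly upward. Of 482 tested features that the annotation types as transposable elements, 16 were called, 15 of them higher, and 6 of the 16 overlap another feature on the same strand. In all 15 the 40% library was above the 6 others. Of these, 10 are copia, an LTR retrotransposon, out of 32 copia insertions tested, against 1.71% of all features called higher. The copia insertion with the smallest p had 193 CPM at 40%, against 90.7 CPM at 10% and 65.9 CPM at 20%, and 51.7 to 68.9 CPM in batch 1 (difference 1.32, SE 0.10, edgeR adjusted p = 0.0177). Insertions of 1 family share near-identical sequence, so how reads were split between them is uncertain, and they are not independent of each other.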

How the data were processed

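RNA of 7 midgut libraries was analysed. The authors deposited 1 Salmon table per library with expected counts per transcript and TPM, per the file headers, and a transcript-to-gene table. The submitters' processing notes name STAR 2.7.11b and Salmon 1.10.3; settings and build (not given in the sources used here) cannot be stated. All 41539 transcript lengths match the Ensembl annotation of BDGP6.54, the source of coordinates. Expected counts were summed over transcripts to 24204 features and rounded; 38 mitochondrial features were removed.

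Tests used edgeR 4.0.16 in R 4.3.3 (quasi-likelihood, TMM, filterByExpr, batch as a term, 3 residual degrees of freedom, Benjamini-Hochberg over 10364 features). Tested on simulated data for this contrast (10163 genes run), it found 10 of 100 genes given a 2-fold change and 67 of 100 given a 4-fold change, and 7 of its 84 calls were unchanged genes. Changed genes were drawn from a mean count of at least 20. The simulated libraries all shared the spread that the fit assumes. The number of unchanged genes called therefore says nothing about false calls from a deviation particular to the unreplicated library. Alternatives used DESeq2 1.42.0, limma 3.58.1 on log2(TPM + 1), other scalings, filters and designs. All library pairs differed by more than sampling noise (chi-square per degree of freedom of 28.7 or more).

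The labels put libraries of the same number at 10% and 20% in 1 batch. Their deviations from the group means correlated at 0.371, 0.407 and 0.683 for numbers 1, 2 and 3. Unlike numbers within batch 1 correlated about as well, at 0.375 (10% number 2 with 20% number 1) and 0.465 (10% number 1 with 20% number 2). These values thus follow batch and do not show that number pairs libraries within batch 1. The calls reported come from the fit with batch as a term, and the replicate block is an alternative.

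The naming rule took the 15 called genes farthest above and the 15 farthest below the nearer batch mate. These had at least 10 CPM and no same-strand overlap. It then took up to 4 called members per gene list, or the 2 with most counts, and sima, Hph and Ldh. Further genes in the text lie outside this rule and were named with their values known. Among them are TotA, TotC, TotM, BomS3, DptA, DptB, Drs, Npc2c, InR, ImpL2, MtnC, alphaTry and Jon99Ci. The library, the lists and this rule were chosen with earlier results of these data known.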

Additional observations from a re-analysis of the deposited data

Results flagged for a closer look

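Transcripts of the mitochondrial genome, which the comparisons leave out, took 71.0% of all counts in the 40% oxygen library (95% interval 71.01 to 71.05), against 61.0% in the 10% library and 64.0% in the 20% library of batch 2 and 4.1% to 4.7% in batch 1. The share was flagged because it lies in data outside the main measurement and above the 20% libraries. The large ribosomal RNA mt:lrRNA alone made up 48.8% at 40%, against 42.6% at 10% and 43.0% at 20%. With 1 library at 40% the difference has no replicate check.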

How the results depend on the processing

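The number of called features depended strongly on the design and on single libraries. Against 177 called higher and 225 lower, the counts were 0 and 0 without the batch term (438 and 564 at an unadjusted p below 0.05), 29 and 68 with the replicate block, 4 and 5 within batch 2 alone, 68 higher against 10% oxygen alone, 340 lower without a filter on low counts, 398 and 544 with DESeq2, and 105 and 709 with limma on log2(TPM + 1). Leaving out 1 library gave 1 to 99 higher and 1 to 162 lower. Causes were not tested. Of the 402 called features, 83 kept their call under the replicate block and 392 under DESeq2, and all 402 kept their direction in both. Plain rescaling, mitochondrial genes kept, a stricter filter, 20% oxygen alone, length offsets and a removed length trend kept both counts within 1.5 times. Without the batch term Muc68D (-1.38), Cht8 (-1.57) and Cda9 (-0.91) changed sign.

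Of the features at least 4-fold outside both mates, 43 above became 14 with mitochondrial genes kept, 23 on TPM, 78 with a minimum of 1 CPM, and, chosen after seeing the data, 29 without same-strand overlaps. At 2-fold, 173 were above and 208 below; the other settings left 36 to 67 below. The 40% library had the fewest counts outside the mitochondrial genome, so its floor of 0.528 CPM limits genes at or near 0.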

Other observations

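Several genes with no list of their own stood at least 4-fold above both batch mates in the 40% oxygen library and were picked after their values were seen. The gene CG14075 had 477 CPM at 40%, against 13.9 CPM at 10% and 22.7 CPM at 20%, and 1.11 to 14.8 CPM in batch 1, but it was not called (difference 4.62, SE 1.38, edgeR adjusted p = 0.204). For CG16713 the levels were 396 CPM at 40%, against 41.9 CPM at 10% and 26.1 CPM at 20%, with 0.192 to 3.84 CPM in batch 1. The neuropeptide-like gene Nplp4 had 21.1 CPM at 40%, against 2.67 CPM at 10% and 1.39 CPM at 20% (edgeR adjusted p = 0.0719). In whe the 40% library had 7238 CPM, against 1335 CPM at 10% and 1085 CPM at 20%, and batch 1 spread over 4.70 to 216 CPM. CG16826 had 6771 CPM at 40%, against 1105 CPM at 10% and 731 CPM at 20%, over a still wider batch 1 range of 0.0943 to 344 CPM. In all 5 of these genes the 40% library was the highest of the 7.

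The replacement histone gene His4r was called, with 5107 CPM at 40%, against 2379 CPM at 10% and 1969 CPM at 20%, and 238 to 267 CPM in batch 1 (difference 1.24, SE 0.13, edgeR adjusted p = 0.0229). Sestrin (Sesn), a stress-induced inhibitor of the growth kinase Tor, had 11.3 CPM at 40%, against 30.9 CPM at 10% and 49.3 CPM at 20%, and 41.5 to 65.4 CPM in batch 1, and missed the threshold (difference -1.81, edgeR adjusted p = 0.128). Transferrin Tsf1 had 372 CPM at 40%, against 247 CPM at 10% and 243 CPM at 20%, also without a call, while the 2 ferritin subunits fell. The metallothionein MtnB had 292 CPM at 40%, against 770 CPM at 10% and 240 CPM at 20%, so unlike MtnA its highest library was the mate at 10%.

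Smaller regulatory lists held few edgeR calls. The 10 JAK-STAT genes, 3 of them Turandot genes, had a median of 0.08, the 13 EGFR genes 0.09 and the 14 septate junction genes 0.13, and edgeR called none of them, with 0, 1 and 3 genes at an unadjusted p below 0.05. DESeq2 and limma called 2 septate junction genes lower each and none of the others. In the JAK-STAT list 3 members stood at least 4-fold above both mates, against 0.68% of features with at least 10 CPM. The 11 clock and clock-output genes had a median of 0.37. Among them edgeR called takeout alone, while DESeq2 and limma called members in both directions. A single called gene is no result about the list.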
